A study of Mus musculus with 5 samples.

Results

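The genes described here are the members of the angiopoietin-Tek axis together with genes of the endothelium of Schlemm's canal: Angpt1, Angpt2, Tek, Tie1, Svep1, Ptprb, Prox1, Flt4, Pecam1 and Kdr. They were chosen by name for their known roles, with earlier results of these data known. All 10 were found among the 56941 gene identifiers of the count table. All 10 also passed the minimum of 10 counts in at least 1 pool that 19713 genes passed. The tissue was the iridocorneal angle, the ring between iris and cornea that holds the trabecular meshwork and Schlemm's canal, the outflow route of aqueous humor. RNA was sequenced from 3 pools of DBA/2J and 2 pools of DBA/2J-Gpnmb+/SjJ mice (Gpnmb+), untreated mice aged 12 months and labelled as of both sexes, to compare the angle of a strain that develops pigmentary glaucoma with that of its control. DBA/2J mice carry loss-of-function alleles of Gpnmb and Tyrp1, both genes of the melanosome. The Gpnmb+ mice have a working Gpnmb on the same background and keep the mutant Tyrp1, so the groups differ by design at Gpnmb. Each pool is described as 3 mice, while the names of the libraries give 3 animals for DBA/2J and 2 for Gpnmb+.

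Tek (also called Tie2) is a receptor tyrosine kinase of blood vessel, lymphatic and Schlemm's canal endothelium. Angpt1, made largely by mural and other supporting cells, activates it, whereas Angpt2, made largely by endothelial cells, acts as a weak agonist or antagonist depending on context. Tie1 is an orphan co-receptor of Tek, Ptprb (VE-PTP) is a phosphatase that removes phosphate from Tek, and Svep1 is an extracellular matrix protein that binds Tie1. Schlemm's canal shares features of blood and lymphatic vessels and expresses the lymphatic transcription factor Prox1 and Flt4 (VEGF receptor 3), beside the general endothelial genes Pecam1 and Kdr (VEGF receptor 2). Loss of Angpt1, Tek or Svep1 function is linked to congenital glaucoma.

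The libraries held between 43900661 and 49837758 counts on genes, and no pair of them was identical. Gpnmb, the gene that defines the groups, was read at 2042 to 2234 counts per DBA/2J library, against 110568 and 129659 in the Gpnmb+ libraries, so each library bore out its genotype label. The label of both sexes was not borne out in Gpnmb+: the Y-linked genes Ddx3y, Eif2s3y, Kdm5d and Uty were read at 0 to 4 counts each in the Gpnmb+ pools, against 325 to 4168 in the DBA/2J pools. Xist, expressed from the inactive X of females, was read at 7843 and 9152 counts in Gpnmb+, against 596, 0 and 2417 in DBA/2J pools 1, 2 and 3. Genotype and sex therefore cannot be told apart in these pools for any gene, those on autosomes included. Fold changes are given on the log2 scale as DBA/2J over Gpnmb+, with the standard error (SE) and 95% confidence interval of edgeR's quasi-likelihood fit to all tested genes. A gene was called when its Benjamini-Hochberg adjusted p-value was at most 0.05 and its fold change at least 1.5, which is 0.58 on the log2 scale. The common marker genes of other tissues differed between the pools, and their values stand beside the results they touch. The RNA came from whole dissected tissue, so fewer cells of a type and less RNA per cell cannot be told apart.

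The promoters of the ligand Angpt1 and of the receptors Flt4 and Tek are shown because these genes carry comparisons that follow: Angpt1 and Flt4 were among the genes with the smallest p-values of the 10, and Tek is the receptor of the angiopoietins. The sequences run 5′ to 3′ on the strand of the gene, from 250 bases before to 50 bases after the start of the canonical GENCODE transcript, in GRCm39. The windows lie at chr15:42540368-42540667 on the minus strand for Angpt1, chr11:49499840-49500139 on the plus strand for Flt4 and chr4:94627041-94627340 on the plus strand for Tek. Capitals mark matches, on either strand, to 4 short motifs that endothelial transcription factors are known to bind: AGGAAG (the ETS family), ACAAAG (the SOX family), GTAAACA (the forkhead family, which includes Foxo1 and Foxc1) and AGATAA (the GATA family).
Angpt1: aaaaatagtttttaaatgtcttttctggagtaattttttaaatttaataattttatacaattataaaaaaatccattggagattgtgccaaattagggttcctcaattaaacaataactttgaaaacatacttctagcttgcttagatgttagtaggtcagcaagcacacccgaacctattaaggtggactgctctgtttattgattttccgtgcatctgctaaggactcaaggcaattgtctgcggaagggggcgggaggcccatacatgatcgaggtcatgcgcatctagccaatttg
Flt4: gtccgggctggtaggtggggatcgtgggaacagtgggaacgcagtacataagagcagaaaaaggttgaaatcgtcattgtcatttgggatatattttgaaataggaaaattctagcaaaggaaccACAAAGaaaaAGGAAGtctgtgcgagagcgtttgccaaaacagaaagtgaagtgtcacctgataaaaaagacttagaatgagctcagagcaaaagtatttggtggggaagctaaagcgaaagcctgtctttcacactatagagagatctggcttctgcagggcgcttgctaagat
Tek: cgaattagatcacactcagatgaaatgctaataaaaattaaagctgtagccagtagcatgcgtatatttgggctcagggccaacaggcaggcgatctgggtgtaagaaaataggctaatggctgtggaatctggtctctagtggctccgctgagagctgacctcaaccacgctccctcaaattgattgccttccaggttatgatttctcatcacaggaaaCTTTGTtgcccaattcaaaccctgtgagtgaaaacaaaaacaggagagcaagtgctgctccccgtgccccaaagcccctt
Flt4 held 1 ETS match at 115 bases and 1 SOX match at 125 bases before the start, and Tek held 1 SOX match at 30 bases before it. The Angpt1 window held none of the 4 motifs. Over the 9 windows read, which leave out that of Angpt2, 5 held the ETS motif (Tie1, Svep1, Ptprb, Prox1 and Flt4), against 34.4% of the 21770 promoters cut in the same way. The SOX motif stood in 2 of the 9 and in 18.2% of all promoters, the forkhead motif in Tie1 alone and in 3.15%, and the GATA motif in none of the 9 and in 10.6%. No matches overlapped one another. A match is a stretch of letters in this window and not evidence of binding.

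None of the 10 genes was called different between the genotypes by edgeR, where 0.796% of all tested genes were called in either direction. DESeq2 called 1 of the 10, Angpt2, against 4.70% of all genes, and limma-voom called 0 against 0.964%. At an unadjusted p of at most 0.05 in edgeR, 3 of the 10 were lower in DBA/2J (Angpt1, Angpt2 and Flt4), against 7.60% of all genes, and 0 were higher, against 8.31%. The fold change was negative for 7 genes and positive for Tek, Ptprb and Pecam1. Its median over the 10 genes was -0.18, beside -0.02 over all tested genes. In 4 genes (Angpt1, Angpt2, Flt4 and Kdr) every DBA/2J pool lay below both Gpnmb+ pools in CPM (the count relative to the TMM-scaled library total), as it did in 17.2% of all genes. In 0 of the 10 did every DBA/2J pool lie above, as it did in 17.3% of all genes, and in the other 6 the groups overlapped. Because the 10 genes were chosen with earlier results of these data known, their counts beside these shares are a description and not a test.

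**Figure D1:**
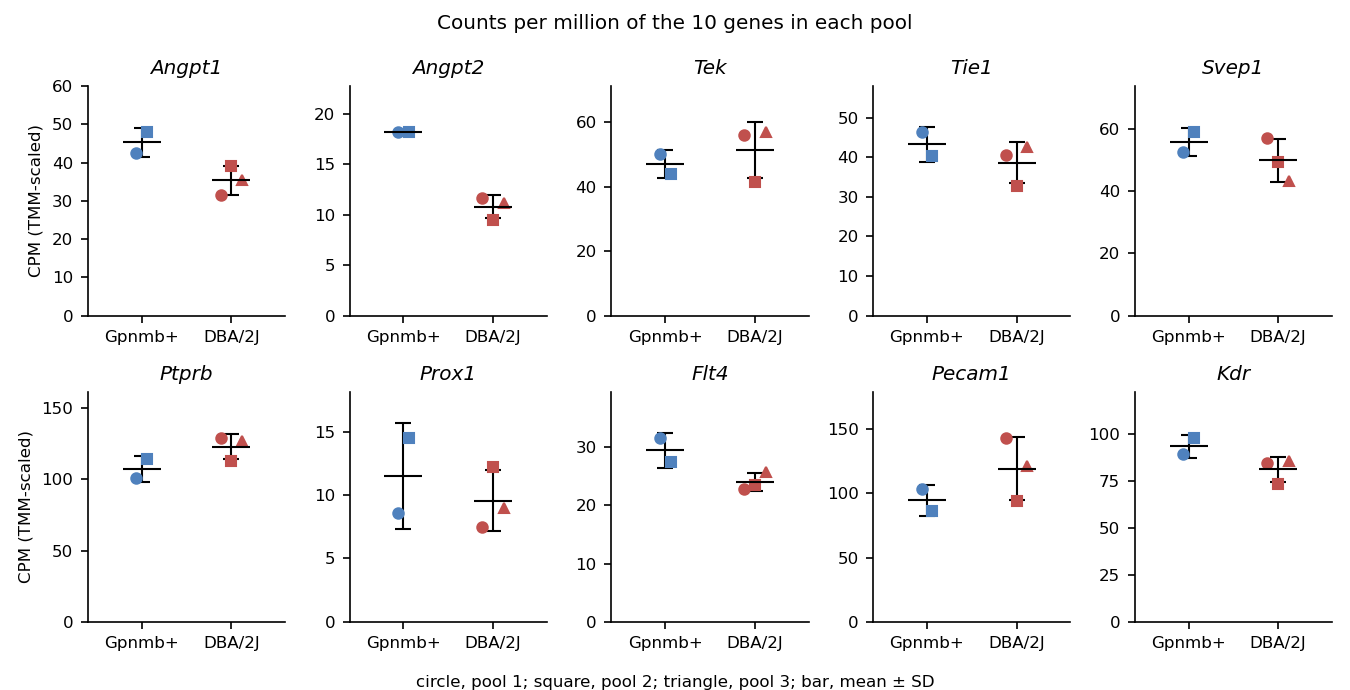
CPM of each of the 10 genes (vertical axes from 0, TMM-scaled) in the 2 Gpnmb+ pools (blue) and 3 DBA/2J pools (red), with the mean and SD of each genotype in black. The DBA/2J pools lie below both Gpnmb+ pools for Angpt1, Angpt2, Flt4 and Kdr, and the genotypes overlap for the other 6 genes.

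Among the ligands, Angpt2 showed the largest difference of the 10 genes. It was read at 518 (pool 1), 407 (pool 2) and 500 (pool 3) counts in DBA/2J, against 924 and 890 in pools 1 and 2 of Gpnmb+. In CPM these were 11.7, 9.48 and 11.2 (10.8 ± 1.15, SD, n = 3) against 18.2 in both Gpnmb+ pools (SD 0.0115, n = 2). The 2 Gpnmb+ pools were alike to 3 digits, and the gap between the genotypes was wider than the spread within either. The log2 fold change was -0.76 (SE 0.13, 95% interval -1.07 to -0.44), a change of -40.8%. The adjusted p-value was 0.0704 in edgeR, 0.0621 in limma-voom and 0.000112 in DESeq2, so the call depended on the tool.

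Angpt2 (chr8:18739202-18791603, minus strand, GRCm39) lies inside Mcph1, a gene of chromosome condensation on the opposite strand. Exons that GENCODE gives to Mcph1 cover 3387 of the 4792 exon bases of Angpt2, or 70.68%. The strand used in counting is not given in the sources used here, so reads of the pair may not have been told apart and the Angpt2 value is uncertain to that extent. Mcph1 was read at 467, 352 and 346 counts in DBA/2J, against 457 and 294 in Gpnmb+, and its log2 fold change was 0.23 (SE 0.23). The Mcph1 groups overlapped, unlike those of Angpt2. Neither the part of Mcph1 reads in the Angpt2 counts nor any Angpt2 reads left uncounted in the shared bases was tested.

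Angpt1 (chr15:42288058-42540417, minus strand) had a smaller fold change of the same sign. DBA/2J pools held 1404, 1684 and 1581 counts and Gpnmb+ pools 2162 and 2348. The highest DBA/2J pool, at 39.2 CPM, lay below the lowest Gpnmb+ pool, at 42.6 CPM. Its log2 fold change was -0.36 (SE 0.12, 95% interval -0.64 to -0.07) with an edgeR adjusted p of 0.239, which did not pass. The lncRNA Gm17473 shares 11.34% of the Angpt1 exon bases on the other strand and was read at 4 to 8 counts a pool. Angpt4, the other Tek ligand of the mouse, was read at 105, 77 and 92 counts in DBA/2J, against 95 and 128 in Gpnmb+, with a log2 fold change of -0.11 (SE 0.25) and overlapping groups.

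The receptors gave small differences of opposite sign. Tek (chr4:94627291-94763224, plus strand) was read at 2490, 1782 and 2543 counts in DBA/2J, against 2541 and 2145 in Gpnmb+. The DBA/2J pools spanned the Gpnmb+ pools, from 41.5 to 57.0 CPM against 43.9 and 50.1. The log2 fold change of 0.13 (SE 0.16) had a 95% interval from -0.26 to 0.52, so a 1.5-fold change in Tek in either direction lay outside it. Tie1 (chr4:118328385-118347261, minus strand) was read at 1802, 1408 and 1899 counts in DBA/2J, against 2352 and 1964 in Gpnmb+. Pool 3 of DBA/2J exceeded Gpnmb+ pool 2 in CPM, at 42.6 against 40.2, so the groups overlapped. The fold change was -0.16 (SE 0.14, 95% interval -0.50 to 0.17), and the edgeR adjusted p-values were 0.738 for Tek and 0.618 for Tie1.

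Of the modulators of the receptors, Ptprb (chr10:116111428-116225440, plus strand) was read at 5728, 4862 and 5669 counts in DBA/2J, against 5109 and 5589 in Gpnmb+. DBA/2J pool 2, at 113 CPM, fell just below Gpnmb+ pool 2, at 114 CPM, and the other DBA/2J pools lay above both Gpnmb+ pools. The log2 fold change was 0.20 (SE 0.10, 95% interval -0.05 to 0.44, edgeR adjusted p 0.411). Svep1 (chr4:58042442-58206859, minus strand) was read at 2541, 2125 and 1930 counts in DBA/2J, against 2673 and 2893 in Gpnmb+. DBA/2J pool 1 lay inside the Gpnmb+ range, at 57.2 CPM between 52.7 and 59.1, and the other DBA/2J pools lay below it. The Svep1 fold change was -0.16 (SE 0.13, 95% interval -0.49 to 0.17, edgeR adjusted p 0.614).

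The fold changes of the canal endothelium genes differed in sign. Flt4 (chr11:49500090-49543582, plus strand) was read at 1013, 1007 and 1147 counts in DBA/2J, against 1603 and 1342 in Gpnmb+. In CPM the DBA/2J pools lay between 22.8 and 25.7, below the Gpnmb+ pools at 31.6 and 27.4. Its log2 fold change was -0.30 (SE 0.11, 95% interval -0.57 to -0.03, edgeR adjusted p 0.274). Kdr (chr5:76093487-76139884, minus strand), the main receptor of Vegfa, was read at 3763, 3155 and 3808 counts in DBA/2J, against 4524 and 4782 in Gpnmb+. All DBA/2J pools were below both Gpnmb+ pools, the nearest at 85.4 against 89.2 CPM, and the fold change was -0.20 (SE 0.10, 95% interval -0.45 to 0.04, edgeR adjusted p 0.390).

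Pecam1 (chr11:106543689-106641454, minus strand), a junction protein of all endothelium and of platelets, had the highest fold change of the 10. It was read at 6378, 4029 and 5403 counts in DBA/2J, against 5235 and 4212 in Gpnmb+. DBA/2J pool 1 was the highest at 143 CPM, and DBA/2J pool 2, at 93.9 CPM, lay between the Gpnmb+ pools at 103 and 86.1 CPM. The log2 fold change was 0.34 (SE 0.19, 95% interval -0.13 to 0.80, edgeR adjusted p 0.447). DBA/2J pool 1 also held the most RNA of Ppbp, a platelet gene, with 1376 counts against 26 to 244 in the other pools. The other platelet genes of its list did not share this pattern. Pf4 stood at 11.9 CPM in both DBA/2J pool 1 and Gpnmb+ pool 1. Itga2b lay between 2.77 and 2.94 CPM in DBA/2J, against 2.50 and 3.19 in Gpnmb+. The whole erythroid and platelet list (7 of 8 genes tested) summed to between 89.2 and 173 CPM in DBA/2J and to 69.1 and 181 CPM in Gpnmb+. The part of platelets in the Pecam1 value was not tested.

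Prox1 (chr1:189850232-189904637, minus strand) was the most variable of the 10. In CPM, DBA/2J pools 1, 2 and 3 stood at 7.51, 12.2 and 8.94, against 8.57 and 14.5 for pools 1 and 2 of Gpnmb+. The Gpnmb+ pools enclosed DBA/2J pools 2 and 3, and the biological coefficient of variation was 25.1%. The fold change of -0.27 (SE 0.29, 95% interval -0.99 to 0.44, edgeR adjusted p 0.705) became 0.16 without Gpnmb+ pool 2. Prox1 is also expressed in retinal and lens cells, so their markers were read beside it. A set of 5 photoreceptor markers summed to 276, 372 and 259 CPM in DBA/2J pools 1, 2 and 3, against 158 and 895 CPM in Gpnmb+ pools 1 and 2, with the highest value of each genotype in the pool where Prox1 was highest. The 6 lens markers tested of 8 summed to between 17.8 and 23.7 CPM in DBA/2J and to 17.8 and 16.3 CPM in Gpnmb+. The part of either tissue in the Prox1 counts was not tested.

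**Figure D2:**
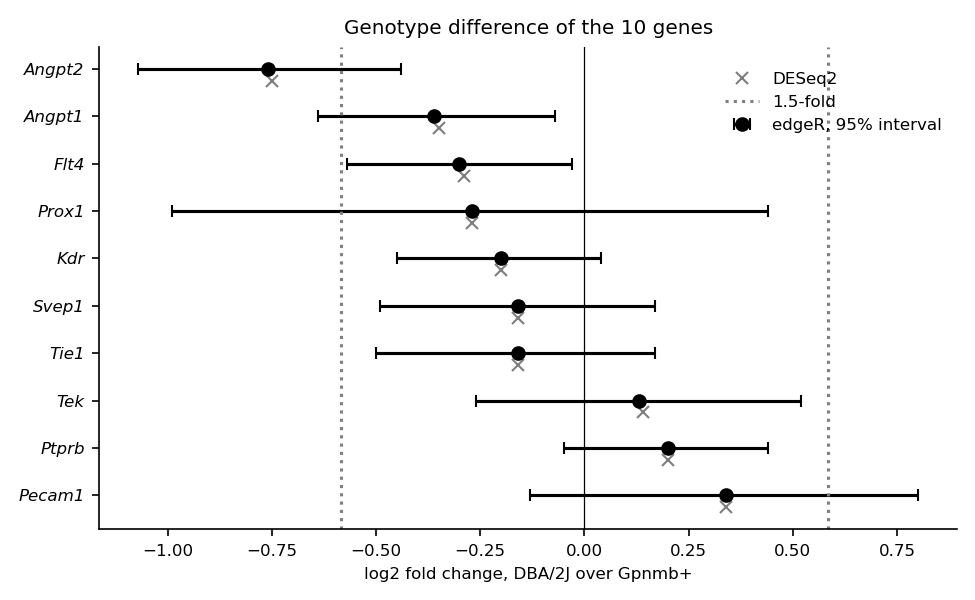
Log2 fold change (horizontal axis, DBA/2J over Gpnmb+) of the 10 genes, with edgeR's estimate and 95% interval (circles and bars), DESeq2's estimate (crosses) and the 1.5-fold limits (dotted lines). The interval of Angpt2, from -1.07 to -0.44, lies wholly below 0, as do those of Angpt1 and Flt4, and the other 7 intervals include 0.

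The median biological coefficient of variation of the 10 genes was 13.4%, beside 17.8% over all tested genes. That yardstick includes genes with far fewer counts and was not matched for expression level. Prox1, at 25.1%, lay above it. For the 10 genes, the median width of the 95% intervals was 0.64 on the log2 scale. The lowest count of any of them in any pool was 334 and the highest 6378, where counting error alone gives a coefficient of variation of 5.47% at the lowest count. Since 3 pools stand against 2, the smallest p that an exact permutation test on ranks (two-sided) can reach for 1 gene is 0.2.

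Levels of different genes were compared as CPM per kilobase of exon model. In Gpnmb+ the order was Kdr (10.2 ± 0.661, SD, n = 2), Pecam1 (9.46 ± 1.21), Tie1 (8.65 ± 0.877), Tek (7.82 ± 0.734), Ptprb (7.50 ± 0.669), Angpt1 (6.31 ± 0.531), Angpt2 (3.80 ± 0.00239), Flt4 (3.58 ± 0.356), Svep1 (3.47 ± 0.283) and Prox1 (1.29 ± 0.468). The ranges of neighbours overlapped from Kdr to Ptprb and from Angpt2 to Svep1. They were separate between Ptprb and Angpt1, between Angpt1 and Angpt2 and between Svep1 and Prox1.

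In DBA/2J the order was Pecam1 (11.9 ± 2.48, SD, n = 3), Kdr (8.82 ± 0.723), Ptprb and Tek (8.58 ± 0.595 and 8.58 ± 1.44), Tie1 (7.72 ± 1.03), Angpt1 (4.93 ± 0.532), Svep1 (3.10 ± 0.432), Flt4 (2.91 ± 0.186), Angpt2 (2.25 ± 0.239) and Prox1 (1.06 ± 0.267). Angpt2 thus held place 7 in Gpnmb+ and place 9 in DBA/2J, where its highest pool, 2.43, lay below the lowest Flt4 pool, 2.76. Both places carry the limit, given above, of the exon bases that Angpt2 shares with Mcph1. The ranges of neighbours overlapped from Kdr to Tie1 and between Svep1 and Flt4. As a yardstick, the median of all tested genes with a length was 2.29 CPM per kilobase. In both genotypes the general endothelial genes and the 3 genes of the receptor complex stood above the ligands, and Prox1 stood lowest.

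**Figure D3:**
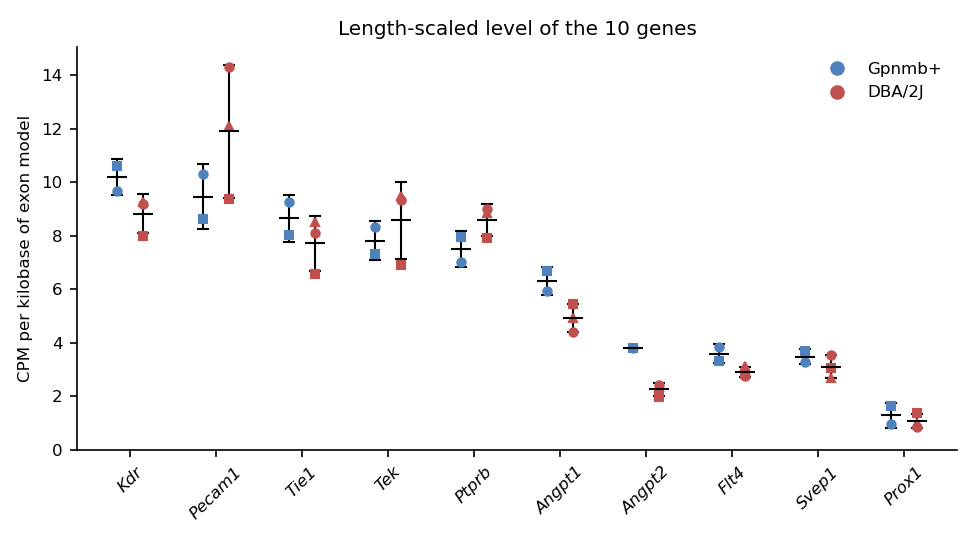
Level of the 10 genes as CPM per kilobase of exon model (vertical axis from 0), in the order of their Gpnmb+ means, with pools as points and the mean and SD of each genotype in black. Angpt2 lies between 1.98 and 2.43 in DBA/2J and at 3.80 in both Gpnmb+ pools.

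Ratios of counts between 2 genes of the same pool do not depend on library scaling. The log2 ratio of Angpt2 to Tek was -2.27, -2.13 and -2.35 in DBA/2J, compared with -1.46 and -1.27 in Gpnmb+, a difference of -0.88 with no overlap. Against Pecam1, Angpt2 stood at -3.62, -3.31 and -3.43 in DBA/2J and at -2.50 and -2.24 in Gpnmb+, a difference of -1.08. Measured against either endothelial gene, every DBA/2J pool thus held less Angpt2 than both Gpnmb+ pools. Pecam1 itself had a log2 fold change of 0.34, beside a median of 0.01 over 20 pan-endothelial markers. Ratios to Pecam1 therefore take in its own difference as well, and the part of other cell types in it was not tested.

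Angpt2 to Angpt1 gave a smaller difference of -0.40, with DBA/2J pools at -1.44, -2.05 and -1.66 and Gpnmb+ pools at -1.23 and -1.40. The nearest pools of the 2 genotypes, -1.44 and -1.40, were closer to each other than the pools of either genotype. Tie1 to Tek was among the tightest ratios, at -0.47, -0.34 and -0.42 in DBA/2J, compared with -0.11 and -0.13 in Gpnmb+, a difference of -0.29 with SDs of 0.06 and 0.01. Neither receptor gave separated groups in CPM, whereas Tie1 relative to its partner Tek was lower in all DBA/2J pools.

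Tek to Pecam1 was -1.36, -1.18 and -1.09 in DBA/2J, compared with -1.04 and -0.97 in Gpnmb+, without overlap and with a difference of -0.20. Here too the nearest pools of the genotypes, -1.09 and -1.04, were closer to each other than the pools of either genotype. The ratios of Ptprb to Tek, Flt4 to Kdr and Prox1 to Pecam1 differed by 0.07, -0.09 and -0.57, and their groups overlapped. The Prox1 to Pecam1 ratio ranged from -4.26 to -2.95 in DBA/2J and was -3.59 and -2.57 in Gpnmb+. The ratios are given as a description, with no test, and were not set beside the share of other gene pairs that separate.

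**Figure D4:**
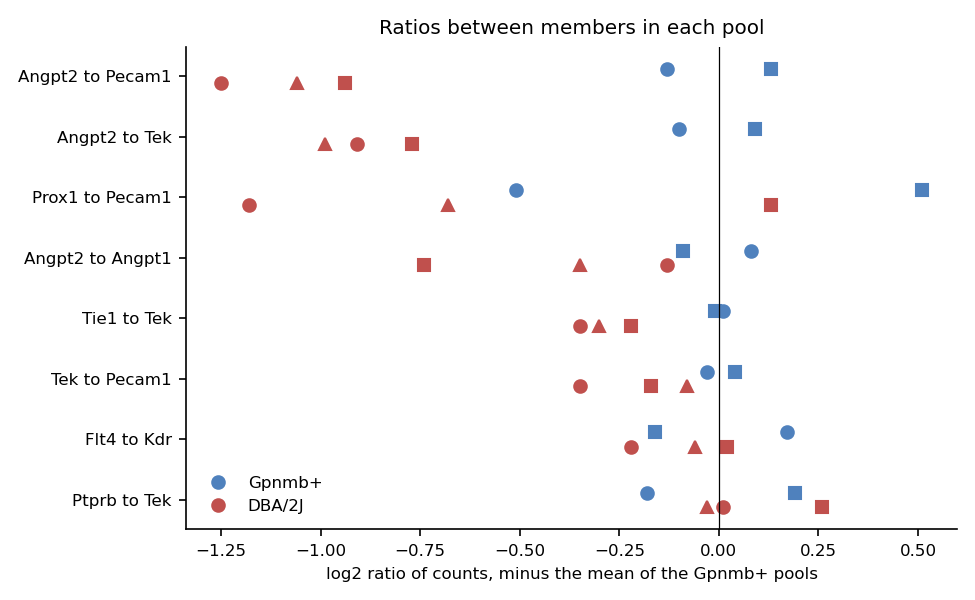
Log2 ratio of counts between named gene pairs in each pool, minus the mean of the Gpnmb+ pools (horizontal axis), for Gpnmb+ (blue) and DBA/2J (red), with circles for pool 1, squares for pool 2 and triangles for pool 3. Angpt2 to Pecam1 and Angpt2 to Tek show the widest separated gaps, -1.08 and -0.88, and 3 ratios overlap.

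The genes whose profile over the 5 pools was most like that of Angpt2 were AA467197, 4933427D14Rik and Gm9991, with root mean square differences of 0.064, 0.070 and 0.076 in centred log2 CPM over 19713 genes. Gm9991 was read at only 22 to 56 counts a pool and 4933427D14Rik at 10 to 24. Among the members, Flt4 (0.259), Kdr (0.276) and Angpt1 (0.282) came nearest to Angpt2. For Tek the nearest genes were Ano8, Dock6 and Ppm1j, at 0.036, 0.037 and 0.041, and among the members Pecam1 (0.132), Tie1 (0.148) and Ptprb (0.158). In Tek, Pecam1, Tie1 and Ptprb, DBA/2J pool 2 was the lowest DBA/2J pool in CPM, as it was in Kdr and Angpt2. Likeness of profile over 5 pools is a description.

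The partners of Tek inside and at the surface of the cell gave fold changes on both sides of 0. The 18 genes tested included adaptors, phosphoinositide 3-kinase and Akt1, Foxo1, Nos3, integrins and target genes such as Thbd and Klf2. edgeR called 0 of them, against 0.796% of all genes in either direction, and their median fold change was 0.05. At an unadjusted p of at most 0.05 in edgeR, 1 was lower, against 7.60% of all genes, and 0 were higher, against 8.31%. The lower gene, Grb7, an adaptor that binds Tek, was read at 867, 1092 and 794 counts in DBA/2J, against 1488 and 1402 in Gpnmb+. It is named here after its values were seen. Its log2 fold change was -0.47 (edgeR adjusted p 0.255). Foxo1, a transcription factor held in check by Tek signalling and an activator of Angpt2, was read at 3746, 3790 and 3709 counts in DBA/2J, against 4218 and 3939 in Gpnmb+, and its fold change was 0.06 (SE 0.08, 95% interval -0.13 to 0.25) after scaling for library size. Nos3, the endothelial nitric oxide synthase, gave 0.27 (SE 0.33) with overlapping groups, and DBA/2J pool 1 was the highest at 648 counts against 294 to 446 in the others.

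VEGF ligands and receptors act on the same endothelium through Kdr and Flt4. Of 8 genes tested, members left out, edgeR called 0, against 0.796% of all genes in either direction. DESeq2 called 1 lower, Vegfd, against 4.70% of all genes in either direction. Vegfd, a ligand of Flt4, was read at 775, 560 and 762 counts in DBA/2J, against 1733 and 1262 in Gpnmb+, and its log2 fold change was -0.92 (SE 0.18, 95% interval -1.36 to -0.48, edgeR adjusted p 0.0884). All DBA/2J pools lay below both Gpnmb+ pools. Vegfd is on chromosome X, and the low Y-linked and high Xist counts of the Gpnmb+ pools were noted above. The other Flt4 ligand, Vegfc, gave -0.45 (SE 0.24, edgeR adjusted p 0.419) with counts of 474, 306 and 565 against 716 and 669. Vegfa gave 0.13 (SE 0.16), and the receptors Flt1, Nrp1 and Nrp2 gave 0.02, -0.03 and -0.19, each with an SE of at most 0.11.

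Among 19 lymphatic and Schlemm's canal genes, edgeR called 1 higher and 1 lower, against 0.796% of all genes in either direction, and the median fold change was -0.08. Reln, a secreted glycoprotein of lymphatic endothelium and nerve cells, was higher at 1.29 (SE 0.12, edgeR adjusted p 0.0244), the DBA/2J pools holding 31808, 28368 and 32612 counts and the Gpnmb+ pools 15748 and 12850. Npnt, a basement membrane ligand of integrins that Schlemm's canal endothelium expresses, was lower at -0.87 (SE 0.11, edgeR adjusted p 0.0407), with 1558, 1844 and 1914 counts against 3668 and 3667. Both calls were lost when a DBA/2J pool was left out, with edgeR adjusted p-values from 0.0757 to 0.0991 for Reln and from 0.0991 to 0.121 for Npnt, and without Gpnmb+ pool 2, at 0.107 and 0.166. Npnt also lost its call without Gpnmb+ pool 1, at 0.0714 in edgeR. The fold changes without a DBA/2J pool were 1.26 to 1.34 and -0.92 to -0.78.

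The other genes of this list did not pass. Over all 19, Reln and Npnt included, every DBA/2J pool lay below both Gpnmb+ pools in 8, against 17.2% of all genes. In 3 every DBA/2J pool lay above both, against 17.3% of all genes. The list was chosen with earlier results of these data known, so these counts are a description and not a test. Every DBA/2J pool lay below both Gpnmb+ pools for Klf4 (-0.58), a flow-responsive transcription factor, Foxc1 (-0.52), a glaucoma-linked transcription factor, Nr2f2 (-0.38), a partner of Prox1, Itga9 (-0.42), an integrin of lymphatic valves, Cav1 (-0.47), of the caveolae, Ccbe1 (-0.36), which takes part in the maturation of Vegfc, and the lymphatic chemokine Ccl21a (-0.44). Klf4 and Ccl21a are named after their values were seen. Every DBA/2J pool lay above both for the lymphatic surface genes Lyve1 (0.57) and Pdpn (0.45). Their edgeR adjusted p-values lay between 0.0689 for Klf4 and 0.531 for Ccl21a. Foxc2, Gata2, Efnb2, Ephb4 and Plvap gave between -0.10 and 0.12, with overlapping groups. Lyve1 is also a gene of resident macrophages, and the 8 macrophage markers summed to between 794 and 1087 CPM in DBA/2J and to 883 and 738 CPM in Gpnmb+. Many of these genes have other sources in the angle, and the part of endothelium in their counts was not tested.

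General endothelial RNA overlapped between the genotypes. The 20 pan-endothelial markers, none of them a member, summed to between 617 and 785 CPM in DBA/2J, against 704 and 631 in Gpnmb+. edgeR called 0 of them, against 0.796% of all genes, and their median fold change was 0.01. None of the 20 was at 0. Cdh5 (VE-cadherin) gave 0.42 (SE 0.22), Emcn -0.06 (SE 0.16) and Cldn5, a tight junction protein, -0.43 (SE 0.16), while Vwf (von Willebrand factor) gave 0.35 (SE 0.11). With these 20 markers' sum in place of the total as library size, edgeR called 0 of the 10 members and 276 of 19713 genes. The 12 mural cell markers are of a cell type that makes Angpt1. They summed to between 1320 and 1368 CPM in DBA/2J and to 1471 and 1390 CPM in Gpnmb+. edgeR called 0 of them, against 0.796% of all genes, and their median was -0.06. With mural markers as library size 0 members were called as well, and 282 of the 19713 genes.

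The 10 genes of tip cells and activated endothelium, all tested, differed in sign from most members. All 10 had a positive fold change, with a median of 0.91, and 9 were above both Gpnmb+ pools in every DBA/2J pool, against 17.3% of all genes. edgeR called 0 of them, and DESeq2 called 4 higher, against 4.70% of all genes called in either direction. At an unadjusted p of at most 0.05 in edgeR 7 were higher, against 8.31% of all genes. The list was chosen with earlier results of these data known, so its counts beside these shares are a description and not a test. Esm1, a proteoglycan secreted by tip cells, was read at 2799, 1323 and 2205 counts in DBA/2J, against 843 and 574 in Gpnmb+. The fold change of Esm1 on the log2 scale was 1.75 (SE 0.33, 95% interval 0.95 to 2.55, edgeR adjusted p 0.0846). Named after their values were seen, the leukocyte adhesion genes Selp, Sele and Vcam1 gave 1.35, 1.08 and 0.82, and the apelin pair Apln and Aplnr gave 0.99 and 1.05. Vcam1 is also made outside endothelium, and edgeR adjusted p-values of these 5 lay between 0.0581 and 0.328. Angpt2 is often counted among the genes of tip cells, yet its fold change had the opposite sign to all 10.

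**Figure D5:**
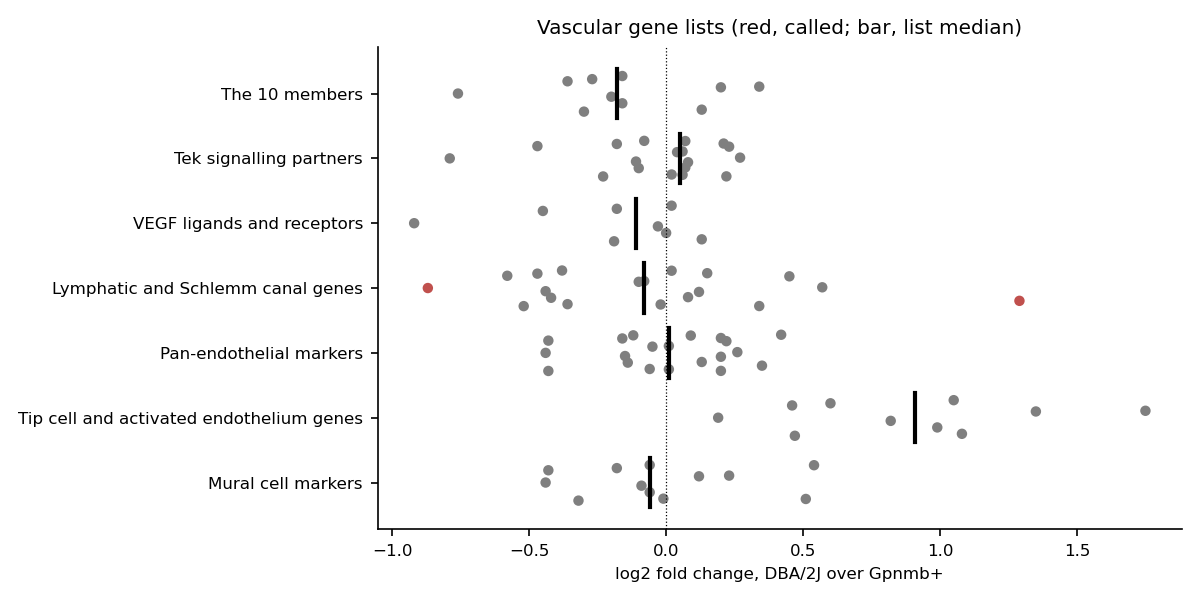
Log2 fold change (horizontal axis, DBA/2J over Gpnmb+) of each tested gene in 7 vascular gene lists, with the list median as a black bar and genes called by edgeR in red. The medians run from -0.18 for the members to 0.91 for tip cell and activated endothelium genes, and the only called genes are Reln (1.29) and Npnt (-0.87).

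Some marker lists of other tissues in the dissected ring differed between the genotypes as well. The 8 nonpigmented ciliary epithelium markers tested of 9 all had positive fold changes, with a median of 1.61, and summed to between 890 and 1030 CPM in DBA/2J against 612 and 469 in Gpnmb+, with Six6 and Col9a1 called. The 8 skeletal muscle markers ranged from 212 to 494 CPM in DBA/2J against 204 and 133. A set of 7 Schwann cell markers ran from 316 to 361 CPM against 376 and 432, with S100b called lower. The corneal endothelium gene Slc4a11 and the pigment cell gene Slc45a2 were called lower as well, and all 4 Y-linked genes of the sex-linked list (Ddx3y, Eif2s3y, Kdm5d and Uty) were called higher, at the counts given above. Each of these calls was lost in at least 1 edgeR fit with a pool left out, where fewer libraries enter, while the fold changes kept their sign, from -2.24 to -1.81 for S100b, from -2.74 to -2.30 for Slc45a2 and from 1.59 to 1.92 for Six6. The 8 trabecular meshwork markers, which define the labelled tissue, were all detected and summed to between 4043 and 5040 CPM in DBA/2J against 3109 and 2443 in Gpnmb+. Chil1 carried that sum, and without it the other 7 markers summed to between 952 and 1141 CPM in DBA/2J against 1229 and 1259 in Gpnmb+. Of the 8 markers, 4 had negative and 4 had positive fold changes. Named after their values were seen, Myoc gave -1.06 and Rspo4 -1.92. For both, every DBA/2J pool lay below both Gpnmb+ pools, with edgeR adjusted p-values of 0.165 and 0.0885. Chrdl1 and Ppp1r1b, also named after their values were seen, went the other way. Chrdl1 stood at 112 to 127 CPM in DBA/2J against 65.8 and 41.3, and Ppp1r1b at 30.5 to 35.8 against 19.7 and 8.3. Their edgeR adjusted p-values were 0.0721 and 0.171. The trabecular meshwork, corneal epithelium and pigment cell lists had median fold changes of 0.10, -0.00 and -0.15. The part of tissue composition in the Angpt2 and Angpt1 values was not tested.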

How the data were processed

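RNA was measured in 3 DBA/2J and 2 Gpnmb+ pools. Per the labels and the methods, the authors used fastp for trimming and STAR for alignment to GRCm39. They deposited the raw count of uniquely mapped reads for each gene, without normalization. Multi-mapped reads are therefore missing, and strand use is not given in the sources used here.

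Positions, exon lengths and promoters came from GENCODE mouse release 39, which held 56323 of 56941 identifiers. Genes reaching 10 counts in some pool were tested with edgeR 4.0.16 (TMM, quasi-likelihood, no covariate) in R 4.3.3. DESeq2 1.42.0, limma 3.58.1 (voom), other filters and scalings, the replicate block and each pool left out were alternatives. CPM used library totals (43900661 to 49837758 counts) multiplied by TMM factors of 0.9753 to 1.018. The edgeR step, tested on simulated data, found 97.0% of 200 altered genes (19046 in all) and made 7 false calls. The simulation used the same dispersion for every gene. It altered only well-read genes, by more than any of the 10 members differed, so it does not give the power for changes of their size.

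The 10 members and all lists were chosen with earlier results of these data known. Named genes were the members, a list set by name, genes of the lists that edgeR called, and the nearest profiles of Angpt2 and Tek. Replicates are pools, so p-values measure spread between pools. Tables were made in Python 3.11.15. Results for some items are not reported here.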

Additional observations from a re-analysis of the deposited data

How the results depend on the processing

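The sign of the 10 members' fold changes held in all but 1 of 140 alternative values. The exception was Prox1, from -0.60 to 0.16 with pools left out. Angpt2 lay between -0.84 and -0.67 over its alternatives, with adjusted p-values from 0.000112 to 0.23. The count of members called was 1 with DESeq2 and 1 with unadjusted p in edgeR, Angpt2 both times, and otherwise 0. Calls with unadjusted p kept the 1.5-fold minimum, which Angpt1 and Flt4 did not reach. Over all genes, edgeR called 157, DESeq2 927, edgeR without a count filter 360 and with unadjusted p and the same fold minimum 1710. With pools left out the count ran from 1 to 217: 6, 1 and 17 without DBA/2J pools 1, 2 and 3, and 217 and 2 without Gpnmb+ pools 1 and 2, where the lone Gpnmb+ pool is assumed to vary like DBA/2J. The cause was not tested. Signs changed with pools left out for Emcn (-0.14 to 0.09), Flt1 (-0.12 to 0.17), Nrp1 (-0.09 to 0.04), Foxc2 (-0.21 to 0.02), Nos3 (-0.10 to 0.48), Gata2 (-0.21 to 0.06), Efnb2 (-0.14 to 0.11), Plvap (-0.06 to 0.34) and Angpt4 (-0.33 to 0.15).

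Pools of the 2 genotypes share the numbers 1 and 2, but no source says that a number marks a batch. Deviations of same-numbered pools from their group means correlated at 0.279 and 0.254 over genes. With 2 Gpnmb+ pools these deviations mirror each other, so pairs of unlike number gave -0.279 and -0.254 by construction. The values are therefore not independent and do not decide whether a number marks a batch. The replicate block called 306 genes on the pools numbered 1 and 2 and 220 on all pools, and 0 members. It turned Efnb2 to 0.05 in both fits and Flt1 to -0.00 on all pools, and it gave Vegfd and Esm1 adjusted p-values below the threshold.

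Every member value rests on at least 334 counts, so the spread between few pools sets the intervals. Pools average over mice, so variation between animals is not seen. A gene whose interval includes 0 was not told apart from no change at this number of pools.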
